A study of Homo sapiens with 12 samples.

Results

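The comparison described here sets CHR-3996 directly against tosedostat in H929 cells, a cell line established from human multiple myeloma, a cancer of antibody-secreting plasma cells. It rests on 6 of the 12 arrays of the study, the 3 labelled CHR-3996 and the 3 labelled CHR2797, which is tosedostat. The CHR-3996 cells had received 250 nM of the compound and the tosedostat cells 1 µM, each for 24 hours. The remaining arrays came from 3 untreated samples and from 3 samples given both compounds at those doses, and they give the level from which each compound moved a gene and a further readout. All RNA came from the same cell line, which limits the comparison to 1 myeloma genotype, 1 time and 1 dose of each compound. The doses differ, so the values compare the treatments as given and not the potency of the compounds. The labels number 3 biological replicates per group and say no more about how they were grown. The p-values set each difference against the spread between samples within the groups. Whether that spread is between separate cultures is not known.

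CHR-3996 blocks histone deacetylases, which remove acetyl groups from histone tails and from many other proteins. Blocking them raises histone acetylation, which is known to open many silent genes to transcription and to lower genes of cell division in tumour cells. Tosedostat inhibits aminopeptidases, the enzymes that cut single amino acids from the end of peptides left by the proteasome. Loss of that last step of protein breakdown is known to deplete free amino acids and to switch on the amino acid response led by the transcription factor ATF4. NFκB, a transcription factor on which many myelomas depend for survival, is controlled by inhibitors that are themselves broken down by the proteasome and that NFκB itself induces.

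Expression was measured on Affymetrix U133 Plus 2.0 arrays, on which a set of short probes reports 1 transcript, and all levels below are log2 values. A difference is the mean log2 level with CHR-3996 minus that with tosedostat, and a change is either compound minus untreated, so that 1 unit is a doubling. A gene was called where its difference or change passed an adjusted p of 0.05 in limma, with 3 arrays per group, and "SE" is the standard error from that fit. Replicate arrays correlated at 0.978 to 0.983 over the 36395 probe sets kept for the fit. The median of an array was 5.26 with CHR-3996, 5.06 with tosedostat and 5.04 in untreated cells. The 3′ minus 5′ level of ACTB, a measure of RNA length, was 1.59 ± 0.17 with CHR-3996 and 2.09 ± 0.11 with tosedostat (SD, n = 3), while that of GAPDH was 0.45 and 0.43. What part the ACTB offset has in the differences was not tested, and counts after setting the array medians equal are given below. Markers of T cells were called in no direction (0 of 3), those of stromal and epithelial cells gave 1 call of 4, CDH1 (1.25), and those of myeloid cells were higher with CHR-3996 in 3 of 4: LYZ (1.85), ITGAM (0.63) and S100A8 (0.48). With equal array medians, after quantile normalization, or without CHR-3996 replicate 2, tosedostat replicate 1 or tosedostat replicate 3, 1 myeloid marker was called.

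CHR-3996 and tosedostat left H929 cells with very different RNA. Of 15587 genes, 7360 (47.2%) differed between the compounds, 4348 of them higher with CHR-3996 (27.9%) and 3012 lower (19.3%). Against untreated cells CHR-3996 changed 7751 genes (49.7%) and tosedostat 748 (4.8%), and 663 of those 748 rose (4.25%). Over all 36395 probe sets, those with no or several gene symbols included, CHR-3996 called 45.1% against untreated cells (29.4% higher) and tosedostat 3.68% (3.23% higher). The tosedostat counts moved with single arrays. Against untreated cells 1174 probe sets were higher with tosedostat and 164 lower, but 549 to 699 were called higher without tosedostat replicate 1, 2 or 3 or untreated replicate 1 or 3, and 60 to 89 lower without any one of the tosedostat or untreated arrays, while the replicate block gave 1936 and 373. The 3 arrays of one compound lay entirely above or below those of the other in 8870 genes (56.9%). In 4140 of the 4348 genes that were higher with CHR-3996, and in 2632 of the 3012 that were lower, the CHR-3996 mean lay farther from the untreated mean than the tosedostat mean did. The differences ran from -4.86 to 7.78 around a median of 0.08. At least 2-fold differences were found for 2073 genes higher and 1027 lower, and at least 8-fold differences for 240 higher and 16 lower. The balance of calls depended on how the arrays were scaled: 61.3% of called probe sets were higher with CHR-3996 in the deposited values, 47.7% after quantile normalization and 43.3% after setting all array medians equal, which moved the median difference over probe sets from 0.09 to -0.07 and -0.11.

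**Figure D1:**
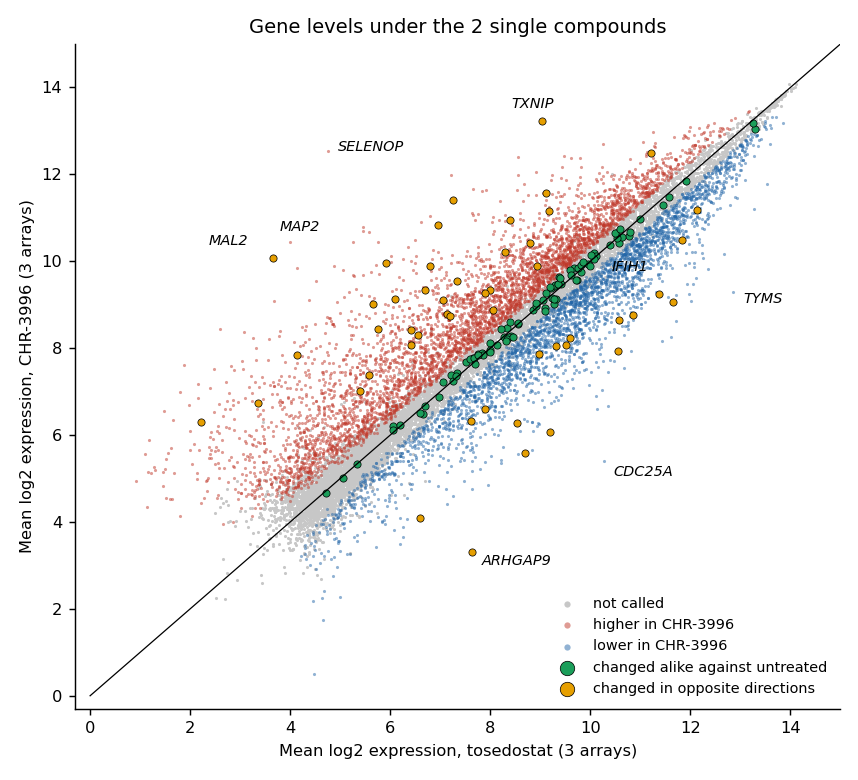
Mean log2 level of each of 15587 genes with tosedostat (x axis) and with CHR-3996 (y axis), 3 arrays each; the line marks equal levels. Red and blue points were called higher and lower with CHR-3996, green points are the 91 genes changed alike by both compounds against untreated cells, and orange points the 50 changed in opposite directions; the points farthest above the line, such as SELENOP, start from low tosedostat levels.

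SELENOP, the gene of a plasma protein that carries selenium, separated the treatments most. Its log2 level was 12.26, 12.86 and 12.50 on the CHR-3996 arrays, 4.47, 5.25 and 4.55 on the tosedostat arrays and 4.65, 4.63 and 4.48 in untreated cells. All CHR-3996 arrays lay far above all tosedostat and untreated arrays, and the difference from tosedostat was 7.78 (SE 0.22, adjusted p = 2.9e-08). MAP2, a protein that binds microtubules in neurons, read 10.39, 10.63 and 10.33 with CHR-3996 and 3.07, 4.83 and 4.07 with tosedostat, a difference of 6.46 (SE 0.34, adjusted p = 4.1e-07). The reductase gene DHRS2 read 10.06, 11.40 and 10.88 against 5.05, 5.64 and 5.68, a difference of 5.32 (SE 0.30, adjusted p = 6.0e-07). The tosedostat arrays of both genes stayed at the untreated level, with changes of 0.02 and -0.31 that were not called.

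The 15 genes with the highest differences, among those whose arrays did not overlap and that were clearly expressed in the higher group, mostly started low. In 10 of the 15 the tosedostat mean lay below 4.54, the mean 40th percentile of the arrays, and 141 of the 240 genes with an at least 8-fold higher level with CHR-3996 did so. Their proteins include the matrix protein fibronectin, FN1 (5.40), the collagenase MMP13 (5.29), the lipid-generating enzyme ENPP2 (5.69), the neuropeptide receptor NPY1R (5.83), the GABA receptor subunit GABRB2 (5.03) and the synaptic protein SYT11 (5.24). The anti-inflammatory protein ANXA1 (5.09) and HSD11B1, the enzyme that makes active cortisol (5.18), were also among them. FRMD4B (5.73), DMP1 (5.08) and LYPD3 (5.19) complete the group with MAL2, described below. For FRMD4B 1 of 2 probe sets was called higher, and the other gave -1.31. For FN1 4 of 5 were called higher, and for SYT11 2 of 3. LYPD3 read 3.18, 0.00 and 2.18 with tosedostat, where the 0 is the floor of the deposited values, so its difference rests in part on that floor. Of the 15, only MAL2 was called for tosedostat against untreated cells. Rises such as those of ENPP2 (0.74, adjusted p = 0.12) and HSD11B1 (0.75, adjusted p = 0.26) did not pass. The filter kept probe sets above the 40th percentile on 3 or more of the 12 arrays. A gene above it on fewer than 3 tosedostat or untreated arrays, such as MAP2, passed only through arrays given CHR-3996, alone or combined. The p-values of such genes describe the gap between the groups and are no separate support for it.

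By the brightest probe set of each gene, the largest difference in the other direction was in CDC25A, the phosphatase that switches on the cyclin-dependent kinases for entry into DNA synthesis. It read 5.31, 6.02 and 4.90 with CHR-3996, 10.19, 10.30 and 10.32 with tosedostat and 10.53, 10.73 and 10.48 in untreated cells. The tosedostat arrays lay just below the untreated ones, a change of -0.31 that was not called, and the difference was -4.86 (SE 0.26, adjusted p = 4.1e-07). UHRF1, which carries DNA methylation through replication, read 6.56, 6.71 and 6.71 against 10.30, 10.24 and 10.49, a difference of -3.68 (SE 0.14, adjusted p = 6.8e-08). TYMS, which makes the thymidine nucleotide for DNA, read 8.69, 9.64 and 9.53 against 12.88, 12.81 and 12.88, a difference of -3.57 (SE 0.26, adjusted p = 2.3e-06). In each of these 3 genes the CHR-3996 arrays lay well below every tosedostat array. The same set of 15 held the cell cycle transcription factors MYBL2 (-3.35) and E2F2 (-3.19), the replication factor CDC45 (-3.23), the CTP synthase CTPS1 (-3.12), the tRNA-modifying enzyme DUS3L (-3.55), the oxidoreductase AIFM2 (-3.17), the chemokine receptor CXCR3 (-3.11), the nucleobase transporter SLC43A3 (-3.08), the pseudogene GUSBP11 (-3.27), and ARHGAP9, MGAT3 and DOCK10, described below. Only the last 3 of these 15 were called for tosedostat against untreated cells, and in 1 of the 15 the CHR-3996 mean fell below 4.54. By probe set, 1 of 3 was called lower for E2F2, 1 of 2 for GUSBP11 and 2 of 3 for MGAT3. The highest difference among their probe sets was -0.14 for E2F2, 0.04 for GUSBP11 and 0.26 for MGAT3.

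**Figure D2:**
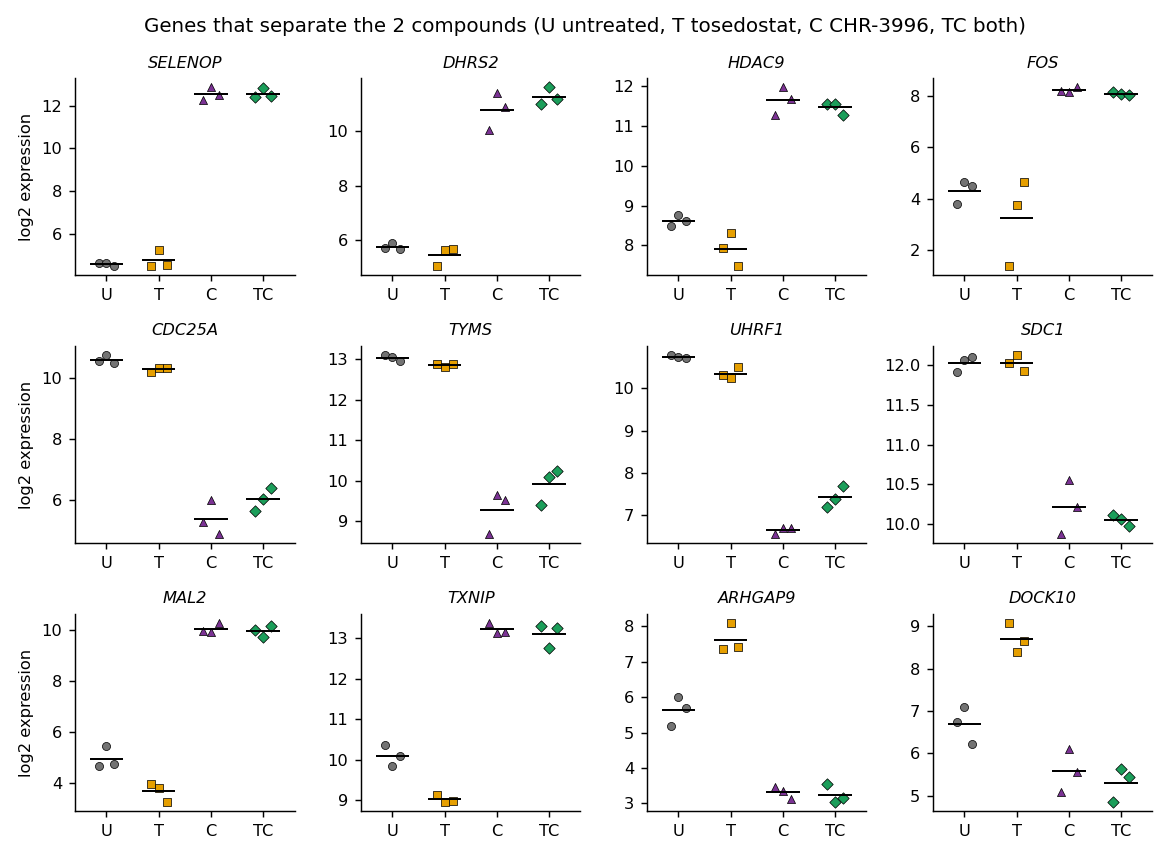
Log2 level on each of the 12 arrays for 12 genes that separate the compounds; points are arrays, short bars are means of 3, with U untreated, T tosedostat, C CHR-3996 and TC both. In SELENOP, DHRS2, HDAC9 and FOS the C arrays stand above U and T, and in CDC25A, TYMS, UHRF1 and SDC1 they stand below them. In MAL2, TXNIP, ARHGAP9 and DOCK10 the T arrays moved the other way.

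Genes of DNA replication were the clearest group on the lower side. With CHR-3996, 34 of 39 measured members were lower and 1 was higher, with a median difference of -1.45 against 0.08 over all genes. The share over all genes, to be set beside each list, was 27.9% higher and 19.3% lower. Against untreated cells CHR-3996 lowered 36 of the 39 and tosedostat lowered 1. All 6 genes of the MCM helicase that unwinds DNA, MCM2 to MCM7, were lower, from -1.46 for MCM2 to -2.38 for MCM4, and MCM10, which acts with it at origins, had the larger difference of -2.66. MCM10 read 7.31, 7.95 and 7.95 with CHR-3996 and 10.35, 10.34 and 10.49 with tosedostat. The licensing factor CDC6 differed by -2.56 and CDC45 by -3.23. The exception was RPA3, the smallest subunit of the single-strand binding protein, which was higher by 0.81. CDC7, the kinase that fires origins, was the member that tosedostat lowered: it read 9.75, 9.77 and 9.89 in untreated cells, 9.26, 8.99 and 9.37 with tosedostat and 9.16, 9.41 and 9.62 with CHR-3996. Both compounds lay below the untreated arrays and overlapped each other. RNA from fewer dividing cells and less RNA per cell cannot be told apart in these samples.

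The promoters of several of these genes carry the E2F motif. E2F factors drive the genes of DNA synthesis, and the motif was searched for as TTTGGCGC or TTTCCCGC on both strands of the 250 bases before the start of each gene (RefSeq, GRCh38.p14). It was found in 11 of 35 DNA replication genes with a promoter in the table, in 4.34% of the genes called lower with CHR-3996, in 2.42% of those called higher, in 2.81% of all tested genes with a promoter in the table and in 1.96% of all 27305 promoters. The stretches below are shown because CDC25A, E2F2 and UHRF1 are among the 15 genes with the lowest differences; the capitals mark the motif, each stretch reads 5′ to 3′ along the gene, and a match is a description of the letters only.
CDC25A, chr3:48188429-48188486, minus strand: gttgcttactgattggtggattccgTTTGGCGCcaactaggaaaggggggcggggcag
E2F2, chr1:23531243-23531300, minus strand: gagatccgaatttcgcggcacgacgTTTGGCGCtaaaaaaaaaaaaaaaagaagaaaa
UHRF1, chr19:4909462-4909500, plus strand: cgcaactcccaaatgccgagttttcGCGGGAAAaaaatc

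Mitotic genes followed the same direction with a smaller median. Of 32 members 20 were lower with CHR-3996 and 1, PTTG1, was higher (0.55), with a median of -0.99. CHR-3996 lowered 30 of the 32 against untreated cells, and tosedostat called none, although its median change was -0.49. SPC25, a part of the NDC80 complex that holds microtubules at the kinetochore, read 6.81, 7.70 and 7.78 with CHR-3996, 9.52, 9.60 and 9.88 with tosedostat and 10.24, 10.08 and 10.12 in untreated cells. Its tosedostat arrays lay between the other groups, and the difference was -2.24 (SE 0.34, adjusted p = 0.00033). Its partner SPC24 differed by -2.10, the Aurora kinase AURKB by -1.90 and UBE2C, the ubiquitin-conjugating enzyme of mitotic exit, by -1.89. Among the inhibitors of cyclin-dependent kinases, 2 of 6 were higher and 1 lower, against 27.9% higher and 19.3% lower over all genes. CDKN2B, which holds cells before DNA synthesis, read 7.71, 7.52 and 7.38 with CHR-3996 and 3.66, 4.05 and 4.57 with tosedostat, a difference of 3.44 (SE 0.35, adjusted p = 1.7e-05). CDKN1C was higher by 2.41 and CDKN1B lower, with a difference of -1.07. CDKN1A, the p21 inhibitor, chosen after its values were seen, was not called: the difference was 0.17 with a 95% interval from -0.14 to 0.47.

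Genes of protein synthesis were lower with CHR-3996 while tosedostat called none of them against untreated cells. Ribosome biogenesis had 15 of 19 lower and 0 higher (median -0.98), and the mitochondrial ribosome had 22 of 26 lower and 0 higher (median -0.77). PES1, which processes ribosomal RNA, read 8.46, 9.16 and 8.84 with CHR-3996 and 10.57, 10.41 and 10.62 with tosedostat, a difference of -1.71 (SE 0.16, adjusted p = 9.4e-06) that was not called by the mean over its 2 probe sets (-0.80, adjusted p = 0.065). MRPL12, a protein of the large mitochondrial subunit, read 8.98, 9.40 and 9.34 against 10.84, 10.86 and 10.85, a difference of -1.61 (SE 0.14, adjusted p = 6.3e-06). NOP16 (-1.69), RRP9 (-1.60), POLR1C (-1.39), MRPL4 (-1.56), MRPS2 (-1.53) and MRPS7 (-1.51) were also lower. The tRNA synthetases, which load amino acids onto tRNA, had 11 of 17 lower and 0 higher (median -0.58), with FARSA at -1.07, HARS1 at -0.97, YARS1 at -0.91 and IARS1 at -0.89.

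The proteasome, which makes the peptides that aminopeptidases then trim, had 24 of 28 subunit genes lower with CHR-3996 and 0 higher, and every member had a negative difference, from -1.74 to -0.20. PSMB5, the subunit that bortezomib blocks, read 10.12, 10.71 and 10.50 with CHR-3996, 12.25, 12.12 and 12.16 with tosedostat and 11.999, 11.92 and 11.87 in untreated cells. The CHR-3996 arrays lay below and the tosedostat arrays above the untreated ones, for a difference of -1.74 (SE 0.14, adjusted p = 4.2e-06). PSMC3 (-1.45), PSMD11 (-1.31) and PSMD8 (-1.16) followed. Against untreated cells CHR-3996 lowered 15 of the 28, while tosedostat called 0 with a median change of 0.26. NFE2L1, the transcription factor that restores proteasome genes, was chosen after its values were seen and read 9.69, 10.30 and 10.04 with CHR-3996, 11.65, 11.24 and 11.53 with tosedostat and 10.04, 9.91 and 9.93 untreated. Tosedostat thus raised it by 1.51 (adjusted p = 0.0012), while the CHR-3996 change of 0.05 was not called. Genes of the unfolded protein response, which serves the endoplasmic reticulum, were lower in 10 of 24 and higher in 2 with a median of -0.32, led by DERL2 (-1.31), SDF2L1 (-1.13), HYOU1 (-0.88) and CRELD2 (-0.86). After setting array medians equal, 18 of the 24 were lower. Heat shock chaperones had 8 of 15 lower, including HSPE1 (-1.42) and HSPH1 (-1.36), and 4 higher, including HSPA4L (1.51) and HSPB1 (1.49); tosedostat called none of the 15.

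The lists with mostly higher calls included MAP kinase feedback and AP-1 genes, metallothioneins, histones and autophagy genes. The list of MAP kinase feedback and AP-1 genes had 14 of 22 higher and 1 lower, with a median of 1.03. FOS read 8.19, 8.17 and 8.33 with CHR-3996, 1.37, 3.74 and 4.65 with tosedostat and 3.79, 4.66 and 4.49 in untreated cells. The spread among its tosedostat arrays was wide, and the difference was 4.98 (SE 0.62, adjusted p = 7.9e-05). JUN, its partner in AP-1, was higher by 2.79, EGR1 by 2.56 and the feedback inhibitor SPRY2 by 2.22. FOSB, named after its values were seen, was higher by 1.45, with a called change of -1.45 under tosedostat and of 0.00, not called, under CHR-3996. DUSP2, a phosphatase of MAP kinases, was the lower member (-1.58).

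Metallothioneins, which bind zinc and copper, and zinc transport genes were higher in 8 of 9 and lower in 0 (median 0.88). MT2A read 12.99, 12.01 and 12.27 with CHR-3996 and 9.45, 9.84 and 9.14 with tosedostat, a difference of 2.95 (SE 0.29, adjusted p = 1.7e-05). MT1H (2.88), MT1G (2.39) and MT1E (1.26) followed, and none of the 9 was called for tosedostat against untreated cells. These genes are close copies of each other, and probes for 1 may bind RNA of another. Histone genes were higher in 8 of 15 and lower in 2 (median 0.89). The variant H2BC5 read 10.97, 11.24 and 10.64 with CHR-3996 and 7.73, 8.28 and 7.04 with tosedostat, above its untreated 5.76, 6.92 and 5.82, a difference of 3.26 (SE 0.38, adjusted p = 4.6e-05). The linker histones H1-3 (3.11) and H1-2 (2.75) and the core histone H2AC6 (2.45) were higher too, and the same caution on near copies holds for them. H2AC6 also rose with tosedostat (1.63, adjusted p = 0.022).

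Autophagy genes, which build the vesicles that carry cell contents to the lysosome, were higher in 16 of 34 and lower in 4 (median 0.33). CHR-3996 raised 22 of the 34 against untreated cells and tosedostat raised 8. MAP1LC3B, whose protein coats the vesicle, read 11.15, 11.74 and 11.45 with CHR-3996, 9.62, 9.98 and 9.84 with tosedostat and 8.92, 9.19 and 9.08 in untreated cells. The 3 groups stood in steps without overlap, and the difference was 1.64 (SE 0.17, adjusted p = 1.8e-05). BNIP3L (1.75), ATG2A (1.56) and GABARAPL2 (1.31) were higher by similar amounts. The cargo receptor SQSTM1 was among the lower members. Chosen after its values were seen, it read 12.38, 12.72 and 12.42 with CHR-3996 against 13.13, 13.000 and 13.06 with tosedostat and 11.69, 11.56 and 11.48 untreated, so that both compounds raised it and tosedostat more. Its difference was -0.55 (SE 0.12, adjusted p = 0.0027), but 1 of its 5 probe sets was called lower and the mean over them was not called (-0.22, adjusted p = 0.14). TFEB, the transcription factor of lysosome genes, chosen likewise, differed by -1.07, and of its changes only that under tosedostat was called (1.40, against 0.33 with CHR-3996).

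**Figure D3:**
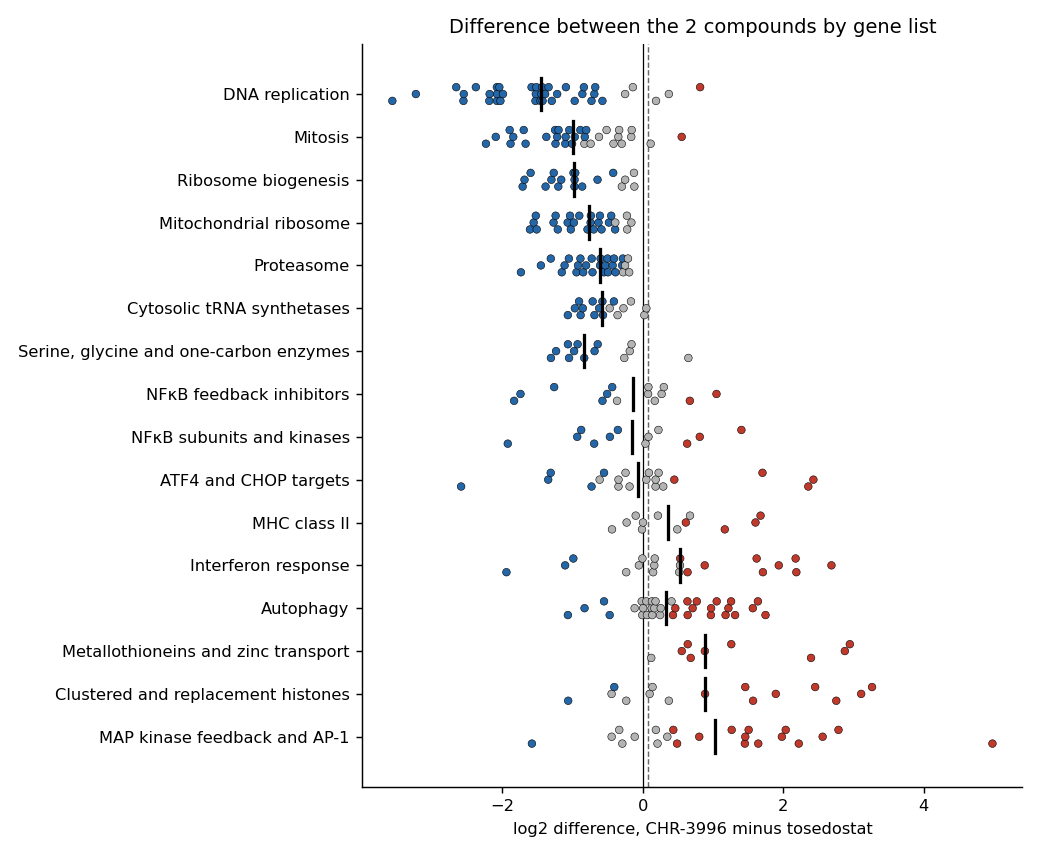
Log2 difference, CHR-3996 minus tosedostat, of each measured member of 16 gene lists; red and blue points were called higher and lower, grey points not called, black bars are list medians and the dashed line is the median over all genes (0.08). The replication, mitosis, ribosome and proteasome lists lie left of 0, the metallothionein, histone and AP-1 lists mostly right of it, and the NFκB and ATF4 lists hold members on both sides.

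NFκB genes divided between the compounds. Of 19 listed feedback inhibitors 14 had a kept probe set with 1 gene symbol, and the other 5 were not analysed here. Among the 14, 6 were lower with CHR-3996 and 2 higher, with a median of -0.15; after quantile normalization the counts were 7 and 4. Both compounds raised 5 of the 14 against untreated cells, CHR-3996 alone was called higher for 5 and tosedostat alone for 1. TNFAIP3, or A20, which removes ubiquitin from the activating complex, read 10.22, 9.82 and 9.86 with tosedostat, 7.86, 8.88 and 7.93 with CHR-3996 and 5.84, 6.40 and 6.03 in untreated cells. NFKBIA, or IκBα, which holds NFκB in the cytoplasm, read 11.32, 10.93 and 10.73 with tosedostat, 9.14, 9.28 and 9.06 with CHR-3996 and 8.48, 8.35 and 8.05 in untreated cells. In both genes all tosedostat arrays lay above all CHR-3996 arrays, which in turn lay above all untreated arrays. The differences were -1.74 (SE 0.26, adjusted p = 0.00029) for TNFAIP3 and -1.83 (SE 0.20, adjusted p = 3.6e-05) for NFKBIA. Only 1 of the 2 probe sets of NFKBIA was called lower, and the mean over both gave -0.56 (adjusted p = 0.012).

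NFKBIZ, a nuclear inhibitor and co-activator, had the opposite order. It read 9.87, 9.85 and 9.72 with CHR-3996, 9.01, 8.63 and 8.66 with tosedostat and 6.80, 6.83 and 7.08 in untreated cells, a difference of 1.05 (SE 0.20, adjusted p = 0.0013). CYLD, another ubiquitin-removing inhibitor, has 7 kept probe sets, 5 of them called higher with CHR-3996. The one that the study tabulates, also the brightest, read 9.87, 10.23 and 10.04 with CHR-3996, 9.83, 9.81 and 9.71 with tosedostat and 8.68, 8.96 and 8.60 untreated, a difference of 0.27 (SE 0.13, adjusted p = 0.13), which was not called. TRAF3, which promotes loss of the kinase NIK, was moved in opposite directions, with changes of -0.49 under CHR-3996 and 0.77 under tosedostat, for a difference of -1.26 (SE 0.16, adjusted p = 8.1e-05).

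Among the 12 subunits and kinases of NFκB, 6 were lower with CHR-3996 and 3 higher (median -0.16). RELB, the subunit of the non-canonical pathway, read 7.28, 7.31 and 7.03 with tosedostat, 5.43, 5.48 and 4.94 with CHR-3996 and 5.26, 5.52 and 5.08 in untreated cells. Only the tosedostat arrays stood apart, and the difference was -1.92 (SE 0.23, adjusted p = 5.0e-05). NFKB1 was raised by tosedostat (0.64, adjusted p = 0.048) and not called for CHR-3996 (-0.30). IKBKB, the kinase that marks IκB for breakdown, was lowered by CHR-3996 (-0.56) and not called for tosedostat (0.32). MAP3K14, which encodes NIK and was chosen after its values were seen, rose under both, to 6.37, 6.25 and 6.25 with tosedostat and 5.80, 6.11 and 5.56 with CHR-3996 from 3.39, 3.66 and 3.36 untreated. The difference of -0.47 (SE 0.15, adjusted p = 0.023) was lost without CHR-3996 replicate 1 (adjusted p = 0.053), CHR-3996 replicate 3 (0.093) or tosedostat replicate 1 (0.072). TRAF5 (1.40), which also carries signals of the TNF receptors, was higher with CHR-3996. ICAM1, an adhesion molecule known as an NFκB target and chosen after its values were seen, read 9.60, 9.06 and 9.28 with tosedostat, 7.44, 7.92 and 7.44 with CHR-3996 and 7.95, 8.001 and 7.69 untreated, a difference of -1.71 (SE 0.18, adjusted p = 2.3e-05).

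The NFκB motif, searched for as GGGA, any base and then TTTCC on both strands of the same 250 bases, was found in 3 of 13 feedback inhibitors with a promoter in the table (NFKBIA, NFKBIZ and TNFAIP3), in 2 of 10 subunits and kinases and in 0.546% of all 27305 promoters. Its share was 0.572% of tested genes with a promoter, 0.644% of genes called lower with CHR-3996 and 0.479% of those called higher. The stretches below are shown because NFKBIA and TNFAIP3 responded more to tosedostat and NFKBIZ more to CHR-3996, and all hold a match, in capitals, which overlaps no match of the other motifs searched.
NFKBIA, chr14:35404796-35404855, minus strand: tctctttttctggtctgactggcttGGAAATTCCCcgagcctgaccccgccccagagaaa
TNFAIP3, chr6:137867167-137867226, plus strand: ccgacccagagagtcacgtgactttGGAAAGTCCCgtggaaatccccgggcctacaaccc
NFKBIZ, chr3:101827742-101827801, plus strand: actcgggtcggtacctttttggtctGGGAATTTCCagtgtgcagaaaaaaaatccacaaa

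**Figure D4:**
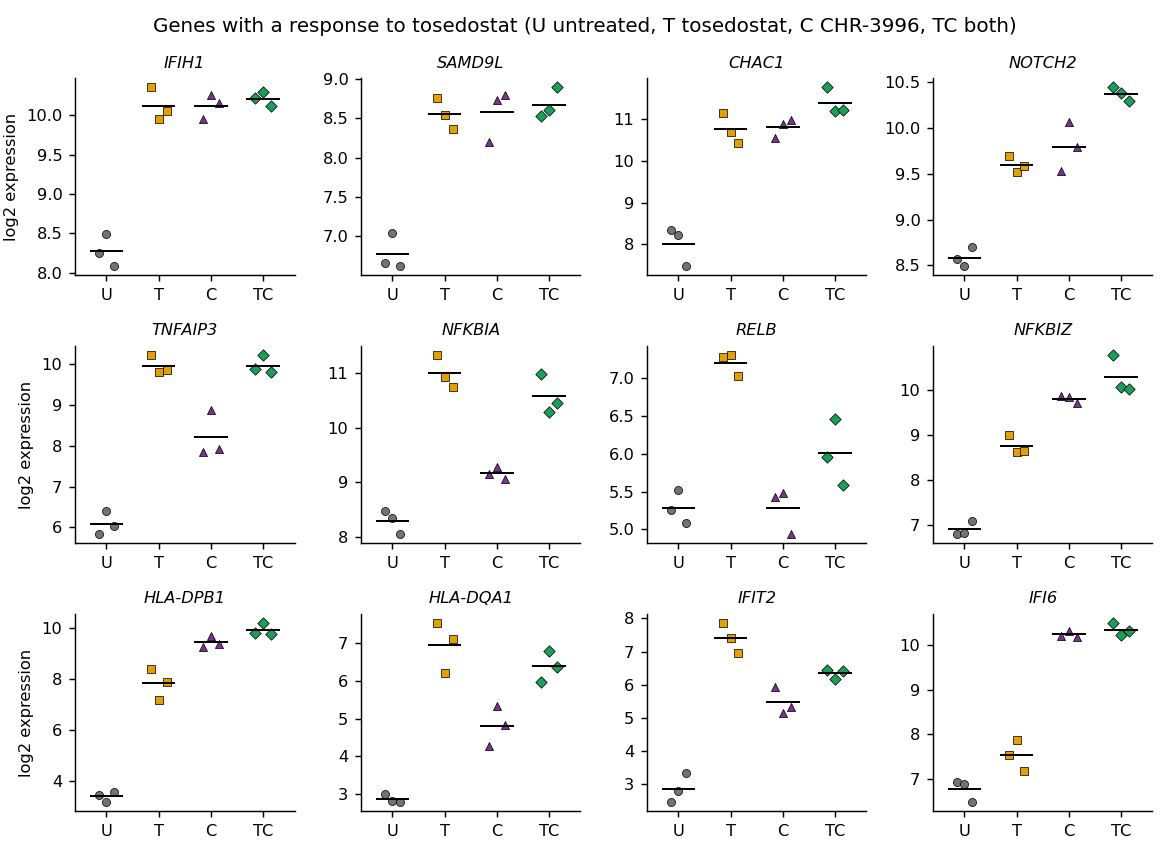
Log2 level on each of the 12 arrays for 12 genes that responded to tosedostat, drawn as in the plot of separating genes (U untreated, T tosedostat, C CHR-3996, TC both; bars are means of 3). IFIH1, SAMD9L, CHAC1 and NOTCH2 reached nearly the same level under both compounds, TNFAIP3, NFKBIA, RELB, HLA-DQA1 and IFIT2 were higher in T than in C, and NFKBIZ, HLA-DPB1 and IFI6 higher in C than in T.

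The targets of ATF4 and CHOP, the transcription factors of the amino acid and stress response, divided as well. Of 20 members 4 were higher with CHR-3996, 5 lower and 11 not called (median -0.07); with equal array medians the counts were 3 and 9, and without CHR-3996 replicate 2 lower calls numbered 9. Both compounds raised 10 of the 20 against untreated cells, which CHR-3996 did alone for 1 and tosedostat alone for 2. CHAC1, an enzyme that breaks down glutathione and a known marker of this response, was chosen after its values were seen. It read 10.55, 10.88 and 10.97 with CHR-3996, 11.15, 10.69 and 10.42 with tosedostat and 8.35, 8.22 and 7.48 untreated. Both treatments lay far above the untreated arrays and overlapped each other: the difference was 0.05, with a 95% interval from -0.54 to 0.63. SESN2, a sensor of leucine chosen in the same way, rose by 1.70 with CHR-3996 and 1.89 with tosedostat, a difference of -0.19 (95% interval -0.57 to 0.19).

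Other members parted. DDIT3, which encodes CHOP, read 10.41, 10.89 and 10.80 with CHR-3996, 9.04, 9.14 and 8.81 with tosedostat and 7.18, 6.91 and 6.83 untreated. It rose under both compounds and more with CHR-3996, a difference of 1.70 (SE 0.18, adjusted p = 2.2e-05). ATF3, a partner in the same response, read 11.62, 12.07 and 11.88 with CHR-3996, 9.55, 9.46 and 9.50 with tosedostat and 8.15, 7.85 and 7.97 untreated, the same order with a difference of 2.35 (SE 0.16, adjusted p = 1.6e-06). STC2, a secreted glycoprotein, read 8.55, 9.60 and 9.07 with CHR-3996, 11.78, 11.79 and 11.42 with tosedostat and 10.36, 10.49 and 10.30 untreated, so that the compounds moved it in opposite directions, with a difference of -2.59 (SE 0.25, adjusted p = 1.3e-05). Of the 2 probe sets of STC2 1 was called lower, and the other gave -0.62. ATF5 was also moved in opposite directions (-0.69 with CHR-3996 and 0.66 with tosedostat). ATF4 itself, chosen after its values were seen, differed by -0.73 while neither change against untreated cells was called. TRIB3, chosen likewise, had a difference of -0.62 that was not called (adjusted p = 0.073) and passed with the replicate number as a block (adjusted p = 0.037).

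The motif of the amino acid response, TGATGNAA on both strands of the 250 bases, was found in 5 of 19 ATF4 and CHOP targets and in 3.19% of all promoters. Its share was 1.97% of tested genes with a promoter, 1.45% of genes called lower with CHR-3996 and 1.66% of those called higher. The stretches below come from CHAC1, which both compounds raised with no called difference, and from members that CHR-3996 raised more, ATF3 and ASNS (difference 0.45), with the match in capitals.
CHAC1, chr15:40953237-40953294, plus strand: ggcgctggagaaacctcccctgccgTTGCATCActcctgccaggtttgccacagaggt
ATF3, chr1:212565191-212565248, plus strand: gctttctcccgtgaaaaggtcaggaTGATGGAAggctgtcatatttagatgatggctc
ASNS, chr7:97872444-97872501, minus strand: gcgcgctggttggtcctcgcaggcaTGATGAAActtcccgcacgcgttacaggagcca

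Genes that supply amino acids were mostly lower with CHR-3996. The enzymes of serine, glycine and one-carbon metabolism had 9 of 13 lower and 0 higher (median -0.84). CBS, the first enzyme from homocysteine to cysteine, read 9.55, 9.51 and 9.56 with tosedostat, 8.08, 8.74 and 8.09 with CHR-3996 and 7.96, 8.11 and 7.94 untreated. Against untreated cells only its tosedostat change was called, and the difference was -1.24 (SE 0.16, adjusted p = 0.00011). CTH, the next enzyme of that path, chosen after its values were seen, rose under both, by 2.26 with tosedostat and 1.57 with CHR-3996. ALDH1L2 (-1.31), SHMT2 (-1.07) and PYCR1 (-1.05) were lower with CHR-3996 too. Of 11 amino acid transporters 6 were lower, including SLC7A1 (-1.26), SLC3A2 (-1.20) and SLC43A1 (-0.93), and 2 were higher. SLC7A11, which imports cystine, was one of those and read 11.09, 11.80 and 11.53 with CHR-3996, 10.59, 10.14 and 10.37 with tosedostat and 8.50, 8.87 and 8.86 untreated, a difference of 1.11 (SE 0.19, adjusted p = 0.00074).

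The genes of MHC class II, which present peptides to helper T cells, rose under both compounds in 5 of 12 cases. HLA-DPB1 read 3.48, 3.20 and 3.59 in untreated cells, 8.40, 7.19 and 7.89 with tosedostat and 9.25, 9.67 and 9.38 with CHR-3996. The untreated arrays lay below 4.54 and the 3 groups stood apart, with a difference of 1.60 (SE 0.26, adjusted p = 0.00054). HLA-DPA1 and HLA-DMA followed, with differences of 1.17 and 1.68. For HLA-DPA1 1 of 3 probe sets was called higher, and the lowest difference among them was 0.22. Of the 12 genes 4 were higher with CHR-3996 and 0 lower (median 0.35), against 27.9% higher and 19.3% lower over all genes. HLA-DRA, chosen after its values were seen, rose by 3.89 with tosedostat and 3.45 with CHR-3996, and its difference of -0.44 was not called (95% interval -1.33 to 0.45).

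HLA-DQA1 and CD74, both picked after their values were seen and the first outside the list, went the other way. HLA-DQA1 read 7.54, 6.21 and 7.13 with tosedostat, 4.28, 5.35 and 4.83 with CHR-3996 and 2.99, 2.81 and 2.79 untreated, a difference of -2.14 (SE 0.35, adjusted p = 0.0005). CD74, the invariant chain that fills the class II groove, has 2 probe sets that disagreed. The brighter on average read about 6 on every array (difference 0.00), whereas the other read 8.89, 7.83 and 8.18 with tosedostat, 4.20, 2.03 and 0.88 with CHR-3996 and 4.15, 3.55 and 2.80 untreated. By that probe set tosedostat raised CD74 by 4.80 (adjusted p = 0.0039), CHR-3996 did not change it by the test (-1.13, adjusted p = 0.21), and the difference was -5.93 (SE 0.68, adjusted p = 4.5e-05). CIITA, the activator of class II genes, was called in neither direction (-0.01). MHC class I and peptide loading genes were lower with CHR-3996 in 6 of 14 and higher in 1, NLRC5 (1.23). The lower ones included the immunoproteasome subunit PSMB10 (-1.71), the peptide transporter TAP2 (-0.96) and TAPBP (-0.58), whose call was lost without CHR-3996 replicate 1 (adjusted p = 0.064) or tosedostat replicate 1 (0.066).

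Interferon response genes rose widely. Both compounds raised 10 of 20, and in the direct comparison 9 were higher with CHR-3996 and 3 lower (median 0.52), with 5 higher without CHR-3996 replicate 2. IFI6 read 10.19, 10.31 and 10.18 with CHR-3996, 7.55, 7.89 and 7.20 with tosedostat and 6.95, 6.89 and 6.50 untreated, a difference of 2.68 (SE 0.18, adjusted p = 1.4e-06). Members of the IFIT family, which bind viral RNA, were split. IFIT1 was higher with CHR-3996 by 2.17 and IFIT3, chosen after its values were seen, by 1.62. IFIT2 read 7.86, 7.41 and 6.96 with tosedostat, 5.93, 5.15 and 5.33 with CHR-3996 and 2.46, 2.79 and 3.33 untreated, a difference of -1.94 (SE 0.28, adjusted p = 0.00022). OAS1 was higher by 2.19. Of 11 chemokines and cytokines 4 were higher with CHR-3996 and 2 lower. CCL4 rose under both compounds and more with CHR-3996 (11.52, 12.55 and 12.47 against 9.81, 10.18 and 9.45, untreated 7.40, 6.74 and 6.85), a difference of 2.36 (SE 0.28, adjusted p = 5.6e-05). CCL5 (2.63) and CXCL8 (2.61) were higher and called for CHR-3996 alone against untreated cells, and IL32 was lower (-1.64).

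The genes that met the rule for a like response, given below, were few. Against untreated cells 572 genes were called in the same direction under both compounds, 545 of them higher. Both comparisons use the same untreated arrays, so this count is not independent support for either. Among the 545, CHR-3996 was directly higher in 325 and lower in 27. A gene was taken as changed alike where, in addition, the 95% interval of its difference lay within -0.5 and 0.5, which held for 84 genes that rose (0.539% of genes) and 7 that fell (0.0449%). Neither called directly nor within that bound were 110 of the 545 genes, and 9 of the 27 genes lower under both compounds. Whether these responded alike is left undecided. The changes of the 84 under CHR-3996 ran from 0.30 to 1.85 with a median of 0.75, and their median under tosedostat was 0.69. The median half-width of their intervals was 0.28, against 0.36 over all genes. Leaving out single arrays moved the 84 by more than 1.5 times: to 47 without CHR-3996 replicate 3, 28, 31 and 35 without tosedostat replicates 1, 2 and 3, and 41 and 35 without untreated replicates 1 and 3. The 7 became 1 without tosedostat replicate 1 or untreated replicate 1 or 3, and 0 without tosedostat replicate 2 or 3 or untreated replicate 2. With the replicate number as a block the counts were 163 and 17.

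IFIH1, which senses double-stranded RNA in the cytoplasm, rose most among them. It read 9.95, 10.26 and 10.16 with CHR-3996, 10.35, 9.95 and 10.05 with tosedostat and 8.25, 8.49 and 8.08 untreated, a difference of 0.01 (95% interval -0.32 to 0.33). SAMD9L, an interferon-induced growth inhibitor, read 8.20, 8.73 and 8.80 with CHR-3996, 8.75, 8.55 and 8.37 with tosedostat and 6.66, 7.04 and 6.62 untreated, a difference of 0.02 (95% interval -0.40 to 0.44). In both genes the arrays of the compounds interleaved more than a doubling above the untreated ones. The lysosomal glycoprotein GPNMB rose by 1.45 and 1.33 (CHR-3996, then tosedostat), the receptor NOTCH2 by 1.21 and 1.01, the transcription factor SOX9 by 1.03 and 1.07, PCDHB15 by 1.16 and 1.20, GIMAP8 by 1.15 and 1.05, and TBC1D16 by 1.09 and 1.04. NQO2 was the single gene changed alike that was also called directly (-0.27).

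By list, the genes changed alike were 4 of the 20 interferon genes (ISG15, IRF1, IRF7 and OASL), 2 ATF4 and CHOP targets (PPP1R15A and HERPUD1, the second also on the unfolded protein response list), and 1 each from MHC class II (RFX5), MHC class I (HLA-F), survival proteins (MCL1), the IL6 and JAK-STAT pathway (PIM1), autophagy (WIPI1) and DNA replication (CDC7). IRF7, the transcription factor that amplifies interferon output, rose by 1.11 with CHR-3996 and 0.95 with tosedostat. MCL1, the survival protein on which myeloma cells lean, rose by 0.50 and 0.56. The 7 genes that fell alike were LZIC, ZFHX4, GAS1, LRRC45, CDC7, SKA2 and PKP4, with changes under CHR-3996 from -0.80 to -0.29. GAS1, a membrane protein linked to growth arrest, read 6.23, 6.12 and 6.26 with CHR-3996, 5.96, 6.07 and 6.15 with tosedostat and 6.62, 6.88 and 6.63 untreated. The other probe sets of LZIC and SKA2 did not behave alike: 1 of 3 for LZIC was called higher with CHR-3996 and 1 of 2 for SKA2 lower.

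In 50 genes (0.321%) the compounds moved the level in opposite directions against untreated cells, 32 with CHR-3996 higher and 18 with CHR-3996 lower. MAL2, a protein of membrane traffic, read 9.97, 9.94 and 10.28 with CHR-3996, 3.94, 3.81 and 3.24 with tosedostat and 4.66, 5.45 and 4.74 untreated, a difference of 6.40 (SE 0.24, adjusted p = 8.0e-08). TXNIP, which restrains glucose uptake and binds thioredoxin, read 13.37, 13.14 and 13.16 with CHR-3996, 9.13, 8.96 and 8.98 with tosedostat and 10.36, 9.84 and 10.09 untreated, a difference of 4.20 (SE 0.17, adjusted p = 9.1e-08). In each the untreated arrays lay between the compounds without overlap. For MAL2 the tosedostat mean (3.66) lay below 4.54, the mean 40th percentile of the arrays, so its fall with tosedostat was at low levels. DKK1, a secreted Wnt inhibitor known for its part in myeloma bone disease, read 9.61, 10.09 and 10.19 with CHR-3996, 5.50, 6.05 and 6.20 with tosedostat and 6.90, 6.95 and 7.29 untreated, a difference of 4.05 (SE 0.22, adjusted p = 5.2e-07). MAP2K6, a kinase upstream of p38, changed by 2.35 with CHR-3996 and -1.01 with tosedostat, and ID3, an inhibitor of helix-loop-helix factors, by 1.55 and -0.999. CTTNBP2 (3.38), EEIG2 (2.22) and the non-coding LINC01619 (4.07) had differences of the same sign. The tosedostat means of CTTNBP2 (3.36) and LINC01619 (2.22) also lay below 4.54.

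On the other side, ARHGAP9 read 3.45, 3.36 and 3.13 with CHR-3996, 7.37, 8.10 and 7.42 with tosedostat and 5.18, 6.02 and 5.70 untreated, a difference of -4.32 (SE 0.25, adjusted p = 6.3e-07). DOCK10 read 5.09, 6.10 and 5.56 with CHR-3996, 9.08, 8.39 and 8.65 with tosedostat and 6.75, 7.09 and 6.22 untreated, a difference of -3.12 (SE 0.31, adjusted p = 1.7e-05). Both genes kept their 3 groups apart. MGAT3, an enzyme of N-glycan branching (-3.12), the receptor GPR35 (-2.49), the mitotic kinase NEK6 (-2.24), the NADPH oxidase subunit NCF1 (-2.11) and CSF2RB, the shared receptor chain for IL3 and GM-CSF (-2.09), followed. For NEK6 2 of 4 probe sets were called lower, and the highest difference among them was -0.21. NCF1 has near-identical pseudogenes whose RNA the probes may also bind. The CHR-3996 means of ARHGAP9 (3.31) and GPR35 (4.09) lay below 4.54, so their falls with CHR-3996 reached low levels. The count of 50 changed with single arrays: it became 32 without CHR-3996 replicate 3, 21, 23 and 30 without tosedostat replicates 1, 2 and 3, and 23, 25 and 23 without untreated replicates 1, 2 and 3, and it was 127 with the replicate block.

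A further 92 genes were lower with CHR-3996 and, against untreated cells, raised by tosedostat and not called for CHR-3996, and 23 were higher and lowered by tosedostat alone in the same sense. The examples that follow were chosen after their values were seen. RNF19B, a ubiquitin ligase, read 7.45, 6.94 and 7.38 with tosedostat, 4.76, 4.84 and 4.18 with CHR-3996 and 4.61, 4.52 and 4.22 untreated, a difference of -2.66 (SE 0.22, adjusted p = 4.6e-06). VASH2, an enzyme that trims tubulin, read 7.85, 7.67 and 7.88 with tosedostat, 5.22, 5.304 and 5.11 with CHR-3996 and 5.75, 5.35 and 5.38 untreated, a difference of -2.59 (SE 0.14, adjusted p = 5.5e-07). In both genes the CHR-3996 and untreated arrays lay close together and the tosedostat arrays stood well above both. TIGIT, an inhibitory receptor of lymphocytes, differed by -2.75 (SE 0.47, adjusted p = 0.00064). ADAM8, a metalloprotease outside the 92, rose under both compounds but more with tosedostat (2.67, against 0.77 with CHR-3996). Its difference was -1.90 (SE 0.23, adjusted p = 5.4e-05). In the other direction, GPRC5D, a receptor found on plasma cells, read 8.25, 8.07 and 8.05 with tosedostat, 9.33, 9.75 and 9.83 with CHR-3996 and 9.52, 9.01 and 9.14 untreated, a difference of 1.51 (SE 0.17, adjusted p = 4.0e-05). CTLA4 (1.74) and the phospholipid flippase ATP10A (1.97) were likewise lowered by tosedostat and not called for CHR-3996.

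Of the genes of the enzymes that the compounds inhibit and their relatives, tosedostat raised 1 deacetylase or sirtuin and 0 aminopeptidases against untreated cells. Of 18 histone deacetylases and sirtuins 6 were higher with CHR-3996 and 2 lower; the list median of 0.13 became -0.00 and -0.07 under the other scalings. HDAC9 read 11.27, 11.97 and 11.68 with CHR-3996, 7.93, 8.32 and 7.47 with tosedostat and 8.48, 8.76 and 8.61 untreated, a difference of 3.73 (SE 0.22, adjusted p = 7.9e-07). HDAC5 (1.46) and SIRT4 (1.22) were higher too. Of the class I enzymes, HDAC3 was higher by 0.81, HDAC2 (-0.05) and HDAC8 (0.12) were not called, and HDAC1 was higher by 0.36 (adjusted p = 0.024). The HDAC1 call was lost with equal array medians (adjusted p = 0.34), without CHR-3996 replicate 2 (0.064) and without tosedostat replicates 1, 2 or 3 (0.056, 0.057 and 0.065). Among 16 aminopeptidases 3 were higher and 3 lower with CHR-3996, 3 and 5 with equal array medians, and 5 higher without CHR-3996 replicate 1. These counts stand beside 27.9% higher and 19.3% lower over all genes. LTA4H, which also makes leukotriene B4, read 12.55, 12.71 and 12.63 with CHR-3996, 11.27, 11.34 and 11.28 with tosedostat and 11.04, 11.14 and 10.99 untreated, a difference of 1.33 (SE 0.10, adjusted p = 3.6e-06). ENPEP was higher by 1.36, while DNPEP and DPP3 were lower (-1.28 and -0.89). NPEPPS (-0.02) and LAP3 (-0.16) were not called, with 95% intervals from -0.37 to 0.32 and from -0.41 to 0.09; the LAP3 difference passed with equal array medians (adjusted p = 0.021).

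Plasma cell genes were lower with CHR-3996 in 7 of 14 and higher in 1, FCRL5 (1.03). SDC1, the surface marker CD138, read 9.87, 10.56 and 10.21 with CHR-3996, 12.04, 12.13 and 11.93 with tosedostat and 11.92, 12.07 and 12.11 untreated. It stayed strongly expressed in all groups, with a difference of -1.82 (SE 0.16, adjusted p = 6.7e-06). TNFRSF17, or BCMA, read 10.96, 12.28 and 12.07 with CHR-3996 and 13.53, 13.57 and 13.51 with tosedostat, a difference of -1.77 (SE 0.28, adjusted p = 0.00041), and MZB1 differed by -1.04. None of the 14 was called for tosedostat against untreated cells. Of 15 genes of the IL6 and JAK-STAT pathway, which supports myeloma growth, 4 were lower and 4 higher, and 6 and 3 with equal array medians. IL6R read 9.998, 10.84 and 10.68 with CHR-3996 and 12.12, 12.36 and 12.03 with tosedostat, a difference of -1.66 (SE 0.21, adjusted p = 8.1e-05), and STAT5B was lower (-0.69), while JAK1 and JAK2 were higher (1.21 and 0.99).

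Death and survival genes were mixed. Of 9 survival proteins 4 were lower with CHR-3996 and 1 higher. BCL2L1, or BCL-XL, read 9.19, 8.60 and 8.78 with tosedostat, 7.86, 8.28 and 7.82 with CHR-3996 and 7.79, 8.07 and 8.09 untreated. Tosedostat alone raised it, and the difference was -0.87 (SE 0.18, adjusted p = 0.0021). BCL2 rose under both compounds and more with CHR-3996 (difference 0.92), but by the mean over its 4 probe sets the difference was 0.38 and was not called (adjusted p = 0.10). BIRC5, or survivin, which is also a mitotic gene, differed by -1.70, and BAG1 by -0.87. Of 15 pro-apoptotic genes of the BCL2 family and the apoptosome 4 were higher and 3 lower, and 4 and 7 with equal array medians. APAF1, the core of the apoptosome, read 9.54, 9.46 and 9.47 with CHR-3996 and 7.19, 7.47 and 7.36 with tosedostat, a difference of 2.15 (SE 0.16, adjusted p = 2.4e-06), with 1 of its 3 probe sets called. CASP9 (0.97) and BMF (0.85) were higher, and BID was lower (-2.01). Known p53 targets were higher in 9 of 21 and lower in 3, 8 and 8 with equal array medians, and lower in 5 without CHR-3996 replicate 2. TP53INP1 rose under both compounds and more with CHR-3996, to 10.96, 11.76 and 11.43 against 8.38, 8.98 and 8.59 from 6.81, 7.29 and 6.95 untreated, a difference of 2.73 (SE 0.22, adjusted p = 3.8e-06). PLK2 (3.35), SESN1 (1.91) and ZMAT3 (1.48) were higher through CHR-3996.

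Metabolic and structural genes were called in both directions. All genes together had 27.9% higher and 19.3% lower. Glycolysis and glucose transport had 9 of 23 lower and 5 higher (median -0.09), with ARRDC4, a relative of TXNIP, at 3.78 and the aldolase ALDOC at 2.41. NRF2 and glutathione genes had 3 of 14 in each direction, and 3 higher and 6 lower with equal array medians. NQO1, a quinone reductase, read 9.29, 8.99 and 9.38 with CHR-3996, 7.64, 7.40 and 7.70 with tosedostat and 6.88, 7.03 and 6.68 untreated, a difference of 1.64 (SE 0.17, adjusted p = 2.2e-05), while KEAP1, which marks NRF2 for breakdown, was lower (-1.996). Cholesterol genes had 4 of 14 higher and 2 lower, and 2 and 3 with equal array medians. HMGCS1 (0.82) was the largest of these. Of 14 tubulins 7 were lower and 1 higher, TUBA1A (1.69), and TUBB2B was the lowest (-1.87). Of 15 neuronal genes, markers of another cell type, 6 were higher and 1 lower (median 0.31), led by MAP2 and SYT11 and followed by SYT1 (2.05) and DPYSL3 (1.61).

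On the combination arrays most of these genes stood near the CHR-3996 level. Those arrays give no mean to the direct comparison. They do enter its shared spread, the filter over 12 arrays and the choice of the brightest probe set, so the place is not independent of them. The place of a gene was set at 0 where the combination mean equalled the tosedostat mean and at 1 where it equalled the CHR-3996 mean; since it shares the tosedostat and CHR-3996 arrays with the differences, it is a description without a test. The combination mean lay nearer to CHR-3996 or beyond it in 97.2% of the 4348 genes higher with CHR-3996 and in 86.7% of the 3012 lower. For genes with at least 2-fold differences these shares were 99.2% and 95.8%, with median places of 1.02 and 0.85. SELENOP had a place of 1.003, CDC25A of 0.87, MAL2 of 0.99 and ARHGAP9 of 1.02.

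**Figure D5:**
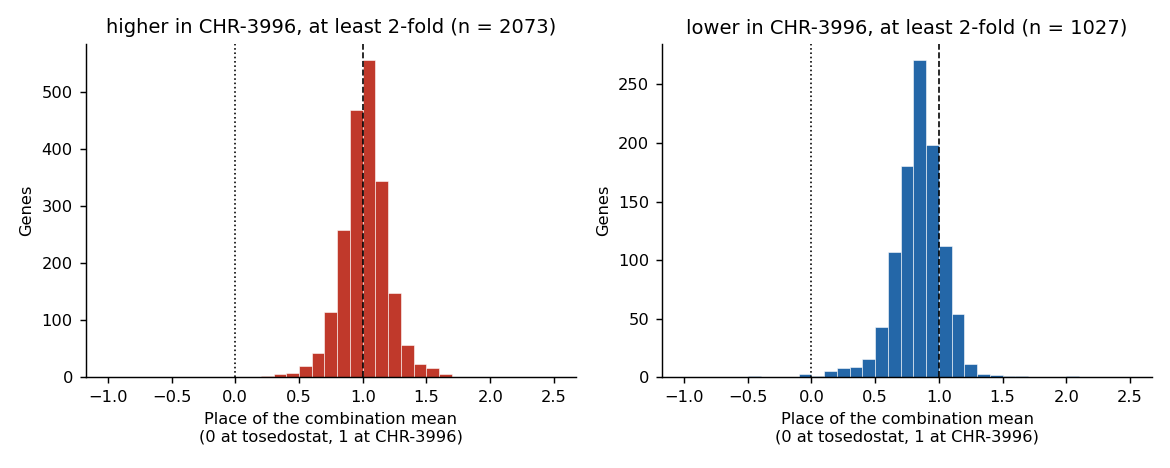
Place of the combination mean between tosedostat (0, dotted line) and CHR-3996 (1, dashed line) for genes with at least 2-fold differences, with the number of genes on the y axis; left, 2073 genes higher with CHR-3996, right, 1027 lower. Both histograms peak near the CHR-3996 level, and the lower genes centre short of it, at 0.85.

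The exceptions with at least 2-fold differences were 16 higher and 43 lower genes that stayed nearer to tosedostat or beyond it. Of the 8 NFκB feedback inhibitors with a called difference, 6 lay nearer to CHR-3996 or beyond it, TRAF3 (place 0.80) and NFKBIZ (place 1.45) among them, and the 2 exceptions were TNFAIP3 and NFKBIA. TNFAIP3 read 9.88, 10.22 and 9.80 with both compounds, at the tosedostat level (place -0.00). NFKBIA read 10.98, 10.29 and 10.45, on average between the compounds and nearer to tosedostat (place 0.23), as did HLA-DQA1 at 5.99, 6.81 and 6.38 (place 0.27). MAP3K14, whose difference was under 2-fold, exceeded both single compounds at 6.88, 7.02 and 6.96 (place -1.41). Among genes changed alike, IFIH1 read 10.22, 10.29 and 10.12 on the combination arrays, overlapping both single compounds, and NOTCH2 read 10.44, 10.38 and 10.29, above all arrays of either compound.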

How the data were processed

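RNA of 12 H929 samples (4 groups of 3) was labelled in 2 cycles and hybridised to U133 Plus 2.0 arrays. The deposited values were normalised by the authors in dChip and are on a log2 scale; the normalization and summary used inside dChip, and its version, are not given in these sources, and values of exactly 0 mark a floor. Of 54675 probe sets, 62 controls were left out, and 36395 were kept whose value was above the 40th percentile in 3 or more of the 12 arrays. Differences were fitted with limma 3.58.1 in R 4.3.3 over all 4 groups (8 residual degrees of freedom), with Benjamini-Hochberg adjustment over all kept probe sets and a threshold of 0.05. Tables and plots were made in Python 3.11.15. The fit was also run on simulated data with independent errors and few changed probe sets. Those settings differ from these data, so no conclusion on the calls is drawn from that run. Of the kept probe sets 29161 carried 1 gene symbol, 1365 several and 5869 none; each gene was read from its brightest kept probe set with 1 symbol, which gave 15587 genes. The number of arrays limits the precision.

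Genes were named by rule: the 15 highest and 15 lowest differences among called genes with non-overlapping arrays and a higher mean above the 60th percentile, the 8 largest changes in each direction among genes changed alike and among genes changed oppositely, at most 4 members per list with the largest called differences, the genes of the enzymes the compounds inhibit, and the probe sets of TNFAIP3, NFKBIA and CYLD that the study tabulates. Names outside it were chosen after their values were seen, as stated beside them; this also holds for MCM2, MCM4, RPA3, PTTG1, DUSP2, NQO2, IRF7, MCL1, ATF5, ASNS, CIITA and the other members named as part of a small count. The members and gene lists were chosen with earlier results of these data known.

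Same-numbered samples deviated together for CHR-3996 and tosedostat (correlations 0.157, 0.135 and 0.116) and for tosedostat and untreated (0.126, 0.288 and 0.183), but not all for CHR-3996 and untreated (0.077, 0.120 and 0.036). The alternatives were other scalings, filters, probe set rules and fits, the replicate number as a block, each array left out, and the criteria of the methods, a fold of 2, a linear difference of 100 and an unpaired test.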

Additional observations from a re-analysis of the deposited data

How the results depend on the processing

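No called difference of a named gene turned sign under any of the alternatives. Of 221 named genes 193 were called. Leaving out 1 array lost 8 of these calls (TAPBP, IDI1, LSS, ITGAM, S100A8, HDAC1, MAP3K14 and CTH) and gained 2, TRIB3 (-0.91, adjusted p = 0.0062) and DDIT4 (-0.45, adjusted p = 0.042), both without CHR-3996 replicate 2. Genes not called as reported that turned sign and were then called were these: by the mean over probe sets LZIC was 0.48 and CD74 -2.96, and by the probe set with the largest difference LZIC was 1.13, SKA2 -0.48, HDAC8 -0.49 and CD74 -5.93. The mean over probe sets lost the calls of PES1 (-0.80), SQSTM1 (-0.22), BCL2 (0.38), TAPBP (-0.28), PFKFB4 (0.97) and TUBE1 (-0.57).

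The direct comparison called 9577 probe sets higher and 6038 lower. By the criteria of the methods these were 2473 and 1468 (genes 1299 and 845), in the test against a 1.5-fold difference 3863 and 1700 (genes 1796 and 903), and with equal array medians 9148 were lower. CHR-3996 against untreated gave 3104 and 1447 by the methods, 4943 and 1779 against 1.5-fold, and 9420 and 8981 lower after quantile normalization and with equal medians. Tosedostat against untreated, 1174 higher and 164 lower, gave 616 and 70 without a filter, 259 lower with the 60th percentile, 354 lower after quantile normalization, 234 and 19 by the methods, and 124 and 2 against 1.5-fold.

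With the replicate number as a block, tosedostat against untreated gave 1936 higher and 373 lower, genes changed alike 163 and 17, opposite genes 127, and the place share of lower genes 84.5%. The direct comparison gave 10364 and 6671 probe sets with that block.

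Genes changed alike were 39 higher and 0 lower without a filter, 141 and 15 with the 60th percentile, 144 higher with a variance trend, 4 and 0 against 1.5-fold, 50 higher by the probe set with the largest difference, 12 lower by the mean over probe sets, 22 lower after quantile normalization, 271 and 13 with an interval within -1 and 1, and 1 and 0 within -0.25 and 0.25. Opposite genes were 103, 20, 105, 101, 7 and 1 under quantile normalization, no filter, the 60th percentile, the variance trend, the methods and 1.5-fold. The share nearer to CHR-3996 was 98.1% of higher and 79% of lower genes after quantile normalization, 98.7% and 77.7% with equal medians, 99.8% and 98.3% by the methods, 99.8% and 97.6% against 1.5-fold, 99.2% and 95.8% for differences of at least 1, and of lower genes 88.6% without a filter and 89.2% with 6 arrays alone.

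Leaving out 1 array gave 8296 to 9529 higher and 5110 to 6194 lower probe sets directly (genes 3784 to 4329 and 2571 to 3147), and 9387 to 10541 and 4920 to 5833 for CHR-3996 against untreated. For tosedostat against untreated the ranges were 549 to 1249 and 60 to 197. The higher count fell to 610, 549 and 699 without tosedostat replicates 1, 2 and 3 and to 602 and 558 without untreated replicates 1 and 3. The lower count fell to 68, 82 and 89 without those tosedostat replicates and to 67, 83 and 60 without untreated replicates 1, 2 and 3. Genes changed alike ranged from 28 to 84 and from 0 to 6, opposite genes from 21 to 68, and place shares from 97.1% to 97.8% and from 86.0% to 89.4%. Lists with more higher calls numbered 13 to 17 (15 in all arrays) and with more lower calls 18 to 20 (18). Without CHR-3996 replicate 2, lower ATF4 and CHOP targets rose to 9, higher interferon genes fell to 5 and lower p53 targets rose to 5, and without CHR-3996 replicate 1 higher aminopeptidases rose to 5. The causes were not tested. The 6 arrays alone give no comparison with untreated cells, and the criteria of the methods give no interval and so no count of genes changed alike.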
